A study of Mus musculus with 18 samples.

Results

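The genes described here are 9 genes of red blood cell formation. They are the regulators Gata1, Klf1, Nfe2 and Tal1, the heme synthesis enzyme Alas2, the receptors Epor and Tfrc, and the membrane proteins Slc4a1 and Epb42. They were found as the probe sets of both array types that carry one of these 9 symbols in the platform annotation, which gave 13 of 13063 probe sets. A probe set is a group of oligonucleotide probes read as 1 intensity. Type a carried 9 of the 13, for 7 of the genes, and type b carried 4, for 4 of the genes, so that Slc4a1 and Tfrc were on both types.

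Total RNA came from the middle of 3 lengths of mouse embryos taken at embryonic day 9.5. The embryos were wild type, heterozygous mutant or homozygous mutant (called null in the titles) for Nkx2-5 or Csx, the homeobox regulator of heart muscle formation. Each genotype had 3 arrays of each type, 18 arrays in all, and the replicates are named by the numbers in their titles. Wild-type arrays are 1, 5 and 7, and heterozygous arrays are 3, 4 and 8. Homozygous mutant arrays are 2 and 6 on both types, with 8a on type a only and 9b on type b only. The labels name no allele, strain, litter, somite stage or number of embryos per array, nor whether 8a and 9b hold 1 RNA. Whether arrays of 1 genotype come from separate embryos is thus unstated, and p-values here reflect array-to-array spread that may be technical. The mutated gene itself was not analysed here.

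At this stage the blood of the mouse embryo consists mainly of primitive erythroid cells, which arise in the yolk sac and enter the circulation while the heart begins to beat. Their program is driven by the transcription factors GATA1 and KLF1 and by TAL1, a basic helix-loop-helix factor that works with GATA factors in a complex on DNA, while NF-E2 activates globin genes through other elements. Heme is made from glycine and succinyl-CoA, a step catalysed in red cells by ALAS2, and the iron enters through the transferrin receptor encoded by Tfrc. Band 3, encoded by Slc4a1, exchanges chloride and bicarbonate and anchors the membrane skeleton with the help of the protein that Epb42 encodes.

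Of the 13 probe sets, 8 were bright enough to be tested, for 6 genes: Klf1, Tal1, Nfe2, Alas2, Slc4a1 and Tfrc. Testing required an intensity above a floor on at least 3 of the 9 arrays of a type. The floor was 2 times the noise, which is 375.1 for type a and 523.1 for type b. Epor, Epb42 and Gata1 had no tested probe set. None of the 8 passed the test in any comparison of genotypes, at an adjusted p under 0.05 from limma. The lowest adjusted p was 0.174, for Slc4a1 on type b between homozygous mutant and heterozygous embryos.

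The arrays were alike in depth of signal. Between 54.5% and 57.8% of the probe sets exceeded the floor on type a and between 38.6% and 44.0% on type b, and the type b array of heterozygous 8 lacked 499 values, none of them of these genes. The homozygous mutant arrays 8a and 9b stood apart in controls of RNA and labelling. The ratio of the 3′ to the 5′ probe set of actin, which rises where RNA is shortened, was 2.50 on 8a and 2.28 on 9b, against 0.97 to 1.41 on the other type a arrays and 0.85 to 1.40 on the other type b arrays. The added control transcript BioB read 3950 on 8a and 4531 on 9b, against 966 to 1539 and 1498 to 2320 on the others. Afp, a gene of visceral endoderm and liver bud, was high in wild type 1, heterozygous 4 and homozygous mutant 2 on both types.

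The sequences before the start sites are shown first for Klf1, Alas2, Epor and Tfrc, because they differ in the words that erythroid factors are known to bind. The RefSeq promoter table of build GRCm38.p6 held 9 windows for 7 of the genes, and each was read over the 250 bases before the start, 5′ to 3′ on the gene's strand. The windows are chr8:84901732-84901981 on the plus strand for Klf1, chrX:150547167-150547416 on the plus strand for Alas2, chr9:21963577-21963826 on the minus strand for Epor and chr16:32608646-32608895 on the plus strand for Tfrc. Capitals mark a GATA word in the sequences of Klf1, Alas2 and Epor and a CACCC word in that of Tfrc.
Klf1: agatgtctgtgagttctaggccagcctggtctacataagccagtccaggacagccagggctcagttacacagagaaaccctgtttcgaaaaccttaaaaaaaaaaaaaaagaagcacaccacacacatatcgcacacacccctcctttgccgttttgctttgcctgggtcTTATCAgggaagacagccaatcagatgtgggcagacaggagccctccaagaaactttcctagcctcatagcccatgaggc
Alas2: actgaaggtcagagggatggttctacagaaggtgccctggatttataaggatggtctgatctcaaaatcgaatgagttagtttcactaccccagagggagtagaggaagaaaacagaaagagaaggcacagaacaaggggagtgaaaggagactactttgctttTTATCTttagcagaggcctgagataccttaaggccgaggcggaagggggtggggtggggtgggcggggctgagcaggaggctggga
Epor: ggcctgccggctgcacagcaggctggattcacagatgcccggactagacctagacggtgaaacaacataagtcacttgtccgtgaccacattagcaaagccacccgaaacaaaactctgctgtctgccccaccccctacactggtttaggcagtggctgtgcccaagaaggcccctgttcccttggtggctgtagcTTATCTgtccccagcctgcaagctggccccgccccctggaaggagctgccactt
Tfrc: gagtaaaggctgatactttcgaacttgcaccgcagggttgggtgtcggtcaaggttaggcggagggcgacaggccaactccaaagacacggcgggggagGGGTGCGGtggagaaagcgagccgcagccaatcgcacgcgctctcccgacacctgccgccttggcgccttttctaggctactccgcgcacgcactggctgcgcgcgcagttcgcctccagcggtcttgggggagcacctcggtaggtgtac
The GATA words searched, on both strands, were the word AGATAA with its form AGATAG, and further the word TGATAA with its form TGATAG, and 5 of the 9 windows held one, each of another gene, against 26.5% of 32851 windows of the same length. The word stood 80 bases before the start in Klf1, 86 in Alas2, 54 in Epor, 205 in Tal1 and 226 in Epb42. The CACCC words searched, of a kind that KLF1 is known to bind, were CCACACCC, CCGCACCC, CCACGCCC and CCGCGCCC. The related word CCCCACCC was not searched, and the windows of Alas2, Epor and Gata1 are among those that hold it on one strand or the other. Of the 9 windows 1 held a word of those searched, that printed for Tfrc, 151 bases before the start, against 12.2% of all windows. The NF-E2 word TGACTCA was in 0 of the 9 and in 4.46% of all windows. The E-box word CAGATG was in 3 of the 9, those of Klf1, Epor and Epb42, against 14.4% of all windows. No match of one word overlapped that of another in these windows. These matches describe letters in a window and are not sites of binding.

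Klf1, a zinc finger activator of globin and red cell membrane genes, was measured on type a. Its intensity was 1576.8, 1527.7 and 1050.1 in wild type 1, 5 and 7. The heterozygous arrays 3, 4 and 8 read 1511.0, 1352.5 and 1253.2. The homozygous mutant arrays 2, 6 and 8a read 1166.1, 792.5 and 1154.3. All 3 homozygous mutant values lay below all 3 heterozygous values, while wild type 7 lay below 2 of the homozygous mutant values. The mean was 1385 ± 291 (SD, n = 3) in wild type, 1372 ± 130.0 in heterozygous and 1038 ± 212 in homozygous mutant embryos. The log2 difference of homozygous mutant from wild type was -0.42 (SE 0.263), with a 95% interval from -0.99 to 0.16 and an adjusted p of 0.609 from limma. In bulk tissue, fewer red cells and less of an RNA in each red cell cannot be told apart.

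Tal1, which pairs with an E protein to bind DNA in blood and vascular precursors, read 700.3, 1225.6 and 415.1 in wild type 1, 5 and 7 on type a. It read 260.2, 409.1 and 380.2 in heterozygous 3, 4 and 8. It read 813.5, 323.7 and 617.8 in homozygous mutant 2, 6 and 8a. The heterozygous values were all below the wild-type values, and homozygous mutant values overlapped both. The log2 difference of heterozygous from wild type was -0.87 (SE 0.373, unadjusted p = 0.0387 and adjusted p = 1 in limma). That of homozygous mutant from wild type was -0.31 (95% interval from -1.12 to 0.51, adjusted p = 0.847), and it was 0.09 when wild type 5 was left out. Tal1 lay between 260.2 and 1225.6 on all arrays, near its floor of 375.1, with 7 of 9 arrays above it.

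Nfe2, the blood-specific subunit of NF-E2, was close to the noise. It exceeded the floor on 3 of 9 arrays of type a, wild type 5 at 460.5, heterozygous 3 at 400.0 and heterozygous 4 at 409.9. The other arrays lay between -43.5 and 313.3, where a negative value means that more was subtracted than was read. The homozygous mutant values of 124.3, -43.5 and 270.9 were all below the floor and all below the heterozygous values. Their distance to the other genotypes on the log2 scale is set by the floor, so no fold is read from it. The log2 differences of Nfe2 in the set counts, the figure of differences and the ranges below carry that limit.

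Gata1, the zinc finger factor without which red cells do not mature, exceeded the floor on 1 of 9 arrays of type b, wild type 1 at 654.4. The other 8 values lay between -156.5 and 369.1. Gata1 was therefore not measurable at this brightness, while genes that it is known to activate, Klf1, Alas2 and Slc4a1, were above the floor on all 9 arrays of their types.

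Alas2, the red cell enzyme of the first step of heme synthesis, was measured on type b. It read 4614.6, 2774.5 and 3391.7 in wild type 1, 5 and 7. The heterozygous arrays 3, 4 and 8 gave 2928.3, 3117.9 and 4867.4, and homozygous mutant 2, 6 and 9b gave 3859.9, 1559.9 and 2756.7. Homozygous mutant 6 and 9b were below all other arrays, and homozygous mutant 2 was among the higher ones, so the genotypes overlapped. The log2 difference of homozygous mutant from wild type was -0.46 (SE 0.341, 95% interval from -1.21 to 0.29, adjusted p = 0.680 in limma). Heterozygous and wild type differed by 0.01, with an interval from -0.74 to 0.76.

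Tfrc, which carries transferrin-bound iron into the cell and is made by most dividing cells, had 3 probe sets on type a, for the 3′, middle and 5′ part of its transcript, and 1 on type b. The 3′ probe set read 1827.4, 2828.8 and 1126.0 in wild type 1, 5 and 7 and 2793.5, 2647.9 and 1908.0 in heterozygous 3, 4 and 8. In homozygous mutant 2, 6 and 8a it read 2431.5, 2140.1 and 755.7. The lowest values were those of 8a and of wild type 7, and the genotypes overlapped. The middle probe set was above the floor on 0 of 9 arrays and the 5′ probe set on 1 of 9, heterozygous 4 at 443.2, so both gave no level to compare.

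On type b the annotated Tfrc probe set read 1418.0, 1466.6 and 771.2 in wild type 1, 5 and 7, then 1595.9, 1332.0 and 1051.5 in heterozygous 3, 4 and 8. It read 1549.5, 1631.5 and 703.1 in homozygous mutant 2, 6 and 9b. Again the lowest values were those of homozygous mutant 9b and wild type 7. The log2 difference of homozygous mutant from wild type was -0.19 (SE 0.436, adjusted p = 0.921 in limma) by the 3′ probe set of type a and 0.05 (SE 0.391, adjusted p = 0.977) by that of type b. These changed sign with single arrays left out. The former was 0.14 without wild type 5 and 0.34 without 8a. The latter was -0.25 when wild type 7 was left out, -0.13 when homozygous mutant 2 was, and -0.17 when homozygous mutant 6 was. Type b also held the same 3 control probe sets as type a by identifier, without a symbol in its annotation, and their 3′ member gave -0.16 (SE 0.301, adjusted p = 0.905).

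Tfrc moved with the actin ratio by its 3′ probe set on type a and by its annotated probe set on type b. On type a, its 3′ probe set and the ratio, both as log2, had Pearson r = -0.92 over 9 arrays (exact permutation p = 0.000904, adjusted p = 0.0163 over 18 relations of 9 probe sets with the ratio and with Afp). Spearman's rho was -0.78 (exact permutation p = 0.0172, adjusted p = 0.155). The r was -0.88 without the 2 arrays farthest from the median ratio and -0.85 without 8a. On type b the annotated probe set had r = -0.84 (exact permutation p = 0.00232, adjusted p = 0.0209) and rho = -0.72 (adjusted p = 0.166). That relation rests on few arrays, since r was -0.42 without the 2 farthest. None of the other 16 relations passed the adjustment. Among them was that of the 3′ control probe set of Tfrc on type b, with r = -0.65 (exact permutation p = 0.0475, adjusted p = 0.214) and rho = -0.33. For that probe set r was 0.35 without the 2 farthest arrays and -0.29 without 9b. Slc4a1 on type a had r = -0.62 with the ratio (exact permutation p = 0.0326, adjusted p = 0.196) and rho = -0.78 (exact permutation p = 0.0172, adjusted p = 0.155), and r was -0.64 without 8a. On type b Slc4a1 had r = -0.37 (exact permutation p = 0.357), and Klf1 had r = -0.19 (exact permutation p = 0.600). Whether shortened RNA lowered the Tfrc or the Slc4a1 signal was not tested.

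**Figure D1:**
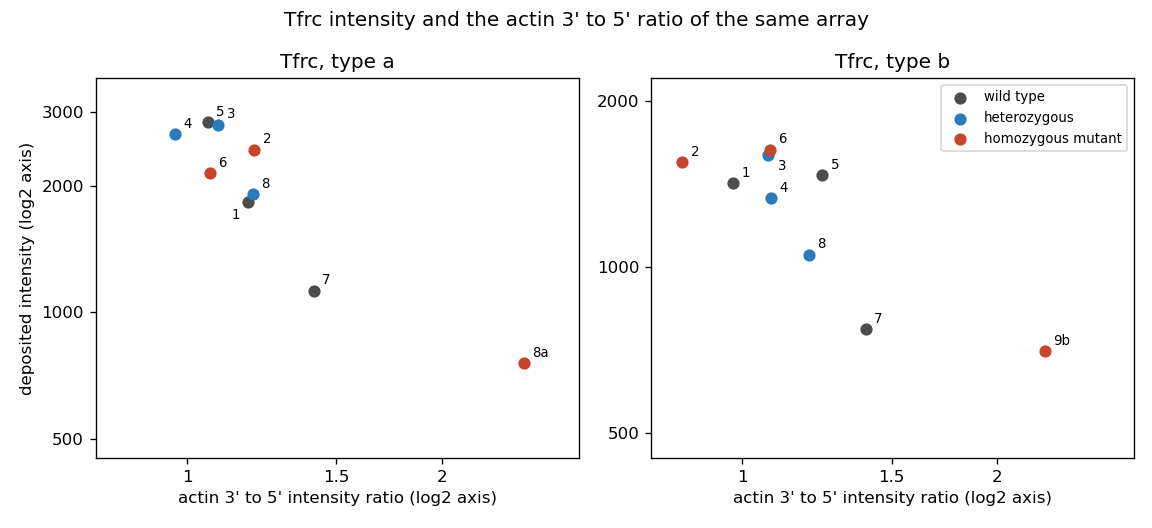
Intensity of the Tfrc 3′ probe set of type a (left) and of the annotated Tfrc probe set of type b (right) against the ratio of the 3′ to the 5′ actin probe set, 1 point per array with its replicate number, coloured by genotype, both axes on a log2 scale. Homozygous mutant 8a and 9b, with ratios of 2.50 and 2.28, have the lowest Tfrc intensity of their type, at 755.7 and 703.1.

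Epor, the receptor for erythropoietin, read below 0 on all 9 arrays of type a, between -728.8 and -38.8. Epb42 read between -75.9 and 120.1, under the floor on all 9 arrays. A negative value means that more was subtracted than was read, by a method that the labels do not state. These probe sets give no evidence on the level of either gene. No genotype was compared for them.

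Slc4a1, the band 3 anion exchanger, had 1 probe set on each type, and both gave a lower level in the homozygous mutant. On type a it read 2473.8, 3296.1 and 1581.7 in wild type 1, 5 and 7. The heterozygous arrays 3, 4 and 8 read 3703.1, 3254.5 and 1714.7, and homozygous mutant 2, 6 and 8a read 1580.3, 1595.4 and 1365.1. The homozygous mutant values were below all heterozygous values and close together, with an SD of 129 against 857 in wild type, but wild type 7 lay between them.

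On type b Slc4a1 read 2759.1, 3099.5 and 2191.0 in wild type 1, 5 and 7. The heterozygous arrays 3, 4 and 8 read 3032.1, 2896.3 and 2778.9, and homozygous mutant 2, 6 and 9b read 2095.4, 1693.6 and 1755.4. Here all 3 homozygous mutant values were below all 6 values of the other genotypes. The log2 difference from wild type was -0.64 on type a (SE 0.319, 95% interval from -1.33 to 0.06, unadjusted p = 0.0707) and -0.53 on type b (SE 0.217, 95% interval from -1.01 to -0.05, unadjusted p = 0.0325). The adjusted p from limma was 0.497 and 0.388, so neither passed the test. The log2 difference from heterozygous was -0.86 (SE 0.319, adjusted p = 0.218) on type a and -0.66 (SE 0.217, adjusted p = 0.174) on type b. With each replicate left out in turn, all 4 of these differences stayed negative, between -0.92 and -0.39 on type a and between -0.67 and -0.42 on type b against wild type.

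Slc4a1 was also alike between the types, which were hybridised separately. Over the 8 replicate numbers that both types share within a genotype, the log2 levels had r = 0.81 and rho = 0.88 for Slc4a1. For the 3′ Tfrc probe set of type a and the annotated one of type b, r was 0.84 and rho was lower, at 0.52. The 3′ control probe set of Tfrc, present on both types by identifier, gave r = 0.94 and rho = 0.90. These are descriptions over 8 points that may share an RNA. Among the arrays with high Afp the Slc4a1 difference of homozygous mutant from wild type was -0.65 by the type a probe set and -0.40 by that of type b. Among the others it was -0.63 and -0.60. For Klf1 the values were -0.44 and -0.41, and for Alas2 -0.26 and -0.56. The high group holds 1 array of each genotype.

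**Figure D2:**
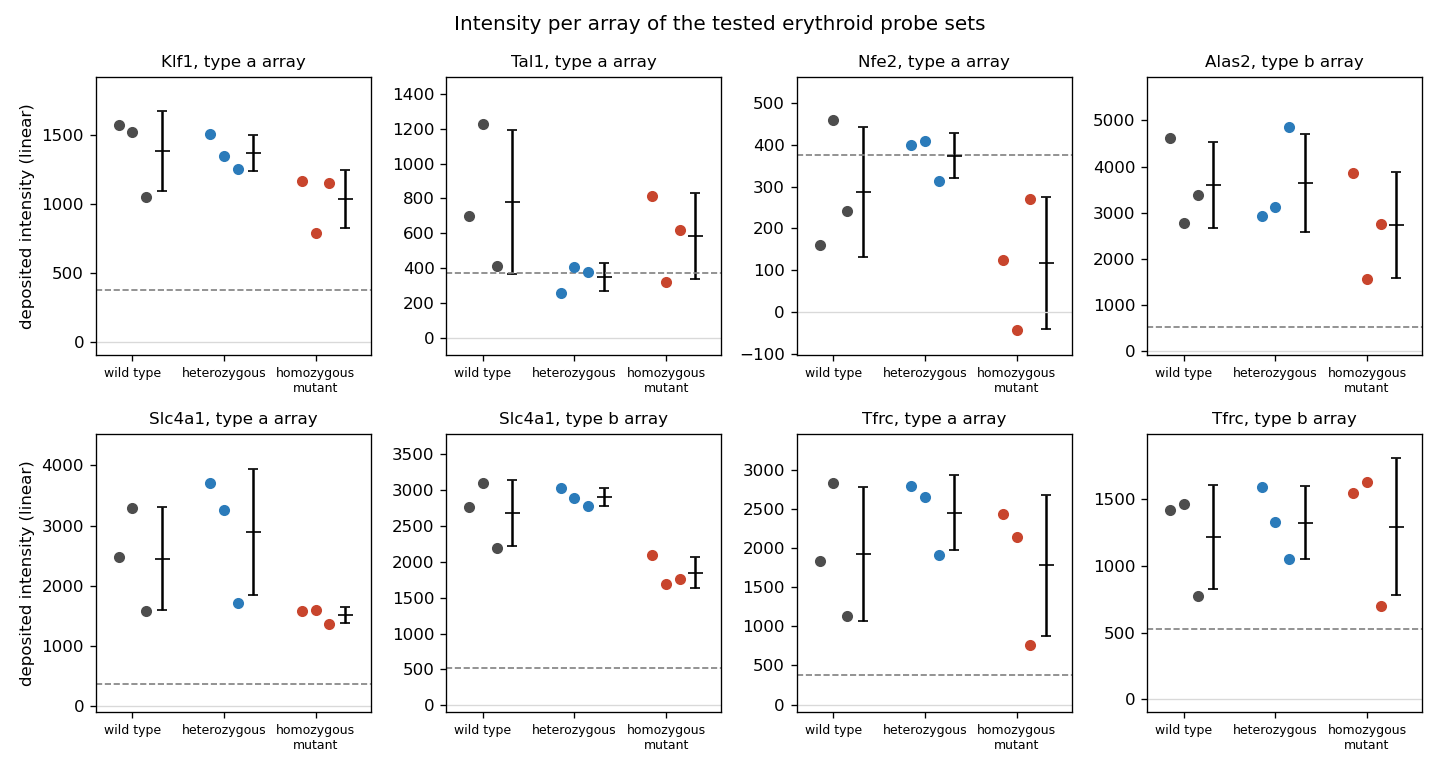
Intensity of the tested probe sets of the 6 genes on each array, 1 point per array, with the genotypes wild type, heterozygous and homozygous mutant along the horizontal axis, the mean and SD of 3 arrays as a bar with whiskers, and the floor as a dashed line. Slc4a1 on type b is the only one whose homozygous mutant values, 1693.6 to 2095.4, lie below every value of both other genotypes.

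Read as a set, the 8 tested probe sets gave 0 calls between homozygous mutant and wild type, where 0.692% of all 6937 tested probe sets were called. Their log2 differences were negative in 7 of 8, against 53.0% of all probe sets tested, the exception being Tfrc on type b. The median was -0.36 against -0.03 over all. The deposited values were lower without overlap for 1 of the 8, Slc4a1 on type b, while 8.56% of all tested probe sets were so. Between homozygous mutant and heterozygous embryos, 0 of 8 were called, where 1.15% of all were. The differences were negative in 7 of 8, against 57.6% of all, the exception being Tal1 at 0.56. The median was -0.45 against -0.07. Here 4 of 8 were lower without overlap, both Slc4a1 probe sets, Klf1 and Nfe2, against 13.2% of all. The Slc4a1 probe sets read the same gene. Nfe2 was below the floor on all homozygous mutant arrays and entered the test only through wild-type and heterozygous arrays. The 2 comparisons share the homozygous mutant arrays, and the 8 probe sets were read from the same arrays.

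Heterozygous and wild-type embryos gave 0 calls among the 8, and 0.0% of all 6937 were called, with 118 at an unadjusted p under 0.05 in limma. The differences were positive in 6 of 8, where 43.6% of all were negative, and the median was 0.07 against 0.03. Only Tal1 was lower without overlap, where 2.84% of all probe sets were. The intervals were wide. That of Klf1 ran from -0.57 to 0.58, that of Slc4a1 from -0.47 to 0.93 on type a and from -0.35 to 0.60 on type b, and that of Tfrc from -0.53 to 1.38 on type a. A change of the size seen between homozygous mutant and wild type lies inside the interval for Klf1 and for Alas2. Without wild type 7, the differences were -0.18 for Klf1, -0.06 and -0.01 for the 2 Slc4a1 probe sets, -0.14 for the annotated Tfrc probe set of type b and -0.01 for Alas2.

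**Figure D3:**
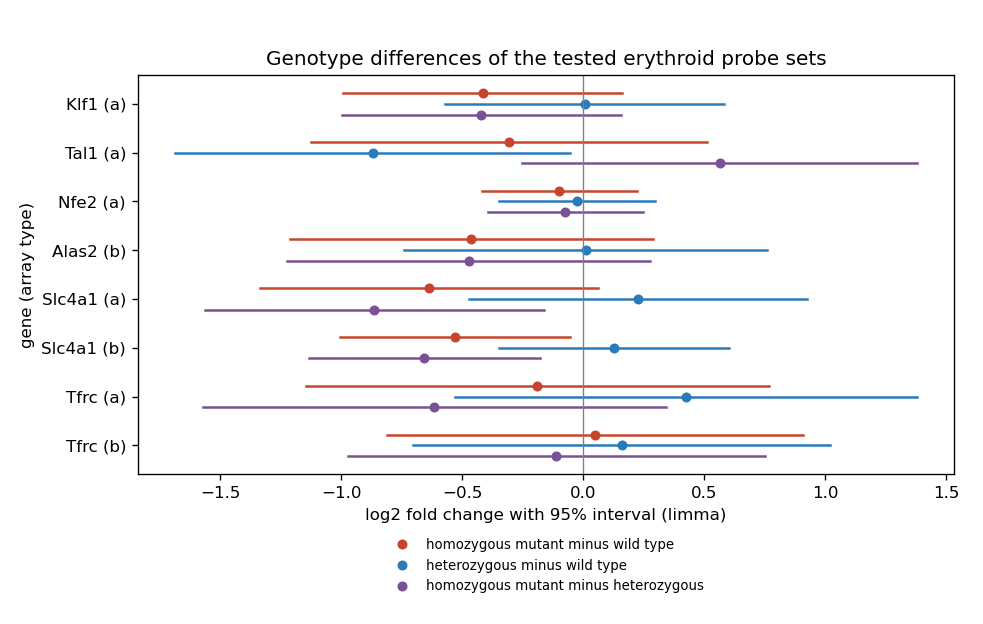
Log2 difference of the 8 tested probe sets for 3 comparisons of genotypes, with points for the estimate and lines for the 95% interval from limma, and a vertical line at 0. All adjusted p-values are at or above 0.174, and the 2 Slc4a1 probe sets lie farthest to the negative side between homozygous mutant and heterozygous embryos, at -0.86 and -0.66.

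The members varied together only in part over the 9 arrays of a type. Among 9 pairs, Klf1 and Slc4a1 on type a had r = 0.73 (exact permutation p = 0.0208, adjusted p = 0.126) and rho = 0.73, with r = 0.91 without the 2 arrays farthest from the median of Klf1. Within genotypes, from deviations from the genotype means, r was 0.54. Tfrc and Slc4a1 on type a had r = 0.70 (exact permutation p = 0.0280, adjusted p = 0.126) and 0.68 within genotypes. On type b the same pair had r = 0.34 (exact permutation p = 0.363, adjusted p = 0.568) and rho = 0.07, with r = -0.40 without the 2 arrays farthest from the median of Tfrc. On type b Alas2 and Slc4a1 had r = 0.50 (exact permutation p = 0.171, adjusted p = 0.514), and r = -0.01 without the 2 arrays farthest from the median of Alas2. No pair passed the adjustment.

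Hemoglobin was set beside these genes because embryonic globin transcripts mark the same cells. On type a Hba-x, the embryonic alpha-like chain, read 52485, 49358 and 37151 in wild type 1, 5 and 7 and 51100.1, 35813 and 50369 in homozygous mutant 2, 6 and 8a. The log2 difference of homozygous mutant from wild type on that type was -0.02 for Hba-x, and it was 0.35 for Hbb-y and 0.14 for Hbb-bh1, the embryonic beta-like chains. Hbb-y was highest on 8a there, at 63173. On type b it was 0.16 for Hbb-y, 0.06 for Hbb-bh1 and 0.02 for the brighter Hba-a1 probe set, and none of these passed the test. Hbb-b2, an adult beta chain, read 37750.4 on 9b and at most 7384 on every other type b array. It differed by 1.32 (SE 0.581, adjusted p = 0.432). Whether globin probe sets this bright were saturated was not tested.

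Relative to the mean log2 level of the embryonic globins on the same array, Klf1 was lower in each homozygous mutant array than in any other. With the wild-type mean set to 0, it was -0.11, -0.04 and 0.15 in wild type 1, 5 and 7, then 0.05, -0.16 and 0.07 in heterozygous 3, 4 and 8. It was -0.68, -0.54 and -0.51 in homozygous mutant 2, 6 and 8a. The groups did not overlap, and the mean difference from wild type was -0.57, with an SD of 0.0894 in homozygous mutant and 0.135 in wild type (n = 3). The two-sided exact permutation p was 0.1, the smallest that 3 arrays against 3 can give, and 0.233 adjusted over 14 such tests. The scale was chosen after the values of Klf1 had been seen. It was applied only to the probe sets of Klf1, Slc4a1 and Alas2. Of the tested probe sets, these had the most negative differences of homozygous mutant from wild type. Tal1, Nfe2 and Tfrc were not set on it. With each globin alone as the reference the Klf1 difference was -0.39 for Hba-x, -0.77 for Hbb-y and -0.56 for Hbb-bh1. Only Hbb-bh1 left the genotypes overlapping (exact permutation p = 0.5). By the mean of the globins the Klf1 difference was -0.61 without 8a. The Hba-x and Hbb-y probe sets carry a suffix for probes shared within a gene family, so related globins may add to the reference. The Hbb-bh1 probe sets do not carry it.

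On the same scale Slc4a1 differed by -0.79 on type a and by -0.64 on type b. Each had an exact permutation p of 0.1, the smallest possible, and 0.233 after adjustment. Slc4a1 was set on this scale after its lower level in the homozygous mutant had been seen. With single globins as the reference it ranged from -0.99 to -0.61 on type a and was -0.69 and -0.59 on type b, and the genotypes overlapped for all of these (exact permutation p = 0.2) except Hbb-y on type a (p = 0.1). The homozygous mutant values were -1.02, -0.31 and -1.05 on type a, against -0.24, 0.28 and -0.04 in wild type. On type b they were -0.35, -0.78 and -0.79, against -0.18, 0.12 and 0.05. Alas2 differed by -0.57 (exact permutation p = 0.2, adjusted p = 0.255) and ranged from -1.30 to 0.13 in the homozygous mutant. With single globins as the reference Alas2 differed by -0.62 for Hbb-y (exact permutation p = 0.3) and by -0.53 for Hbb-bh1 (exact permutation p = 0.6). The type b reference contains the Hbb-y probe set, which was highest on 9b at 78359, and without 9b the Slc4a1 difference was -0.56.

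**Figure D4:**
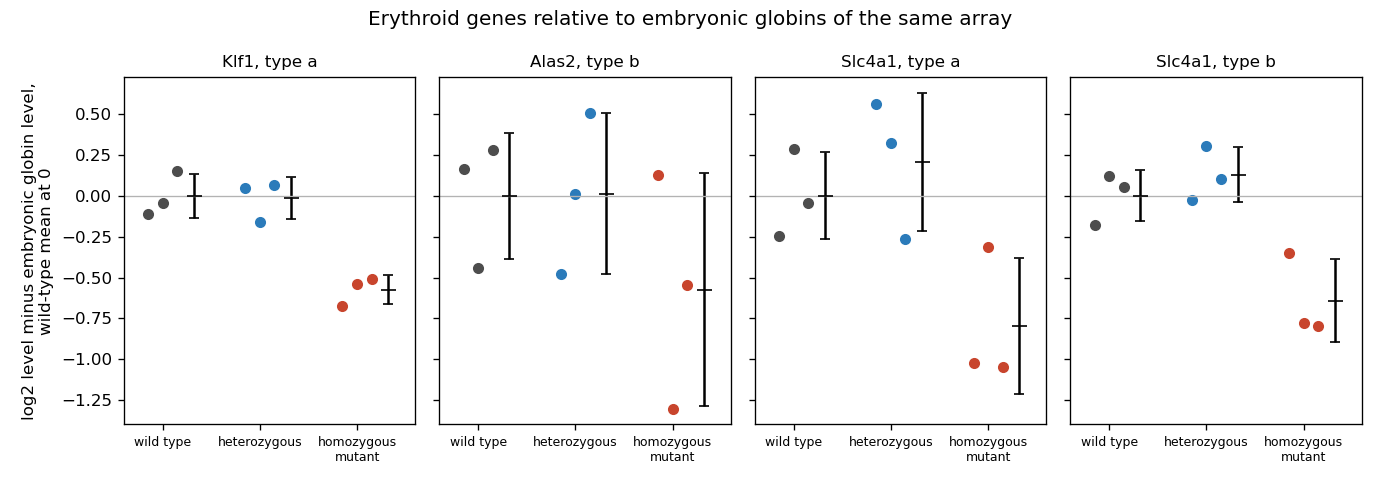
Log2 level of Klf1, Slc4a1 on both types and Alas2 minus the mean log2 level of the embryonic globins of the same array, with the wild-type mean set to 0, 1 point per array, the mean and SD of 3 arrays as a bar with whiskers and genotypes along the horizontal axis. Klf1 in homozygous mutant 2, 6 and 8a, at -0.68, -0.54 and -0.51, lies below all wild-type and heterozygous arrays. Tal1, Nfe2 and Tfrc were not set on this scale.

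Other regulators of red cell genes were read from a list of 20, of which 16 were on the arrays and 13 were tested. None passed between homozygous mutant and wild type, with 9 of 13 negative, against 53.0% of all tested probe sets, and a median of -0.15. Between homozygous mutant and heterozygous embryos, where 1.15% of all tested probe sets were called, 1 of 13 passed. It was Tcf3, which encodes the E proteins E12 and E47, partners of TAL1 on DNA. Tcf3 read 3161.2, 4681.3 and 4058.7 in wild type 1, 5 and 7 and 4470.1, 5021.6 and 3769.4 in heterozygous 3, 4 and 8 on type b. In homozygous mutant 2, 6 and 9b it read 1974.4, 2275.4 and 1435.6, below all other arrays. The log2 difference was -1.24 from heterozygous (SE 0.238, adjusted p = 0.0336 in limma) and -1.07 from wild type (SE 0.238, adjusted p = 0.0802). In the homozygous mutant, 13.2% of all tested probe sets were lower without overlap than in heterozygous and 8.56% than in wild-type embryos.

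The Tcf3 call from heterozygous embryos held under 9 of 20 alternatives and was lost under 11, with adjusted p from 0.0309 to 0.203. It was lost in 7 of the 9 fits without a replicate, those without wild type 5 or 7, any of the heterozygous replicates, homozygous mutant 2, or 8a and 9b. Hemgn, a red cell nuclear protein that is expressed under GATA1, read 750.6, 675.6 and 496.5 in wild type 1, 5 and 7 on type a. It read 699.1, 433.8 and 519.7 in heterozygous 3, 4 and 8 and 348.6, 160.5 and 205.8 in homozygous mutant 2, 6 and 8a. All homozygous mutant values were below the floor of 375.1 and all others above it. Hemgn thus entered the test only through the genotypes in which it was high. With the floor in place, the log2 difference of homozygous mutant from wild type was -0.75 (SE 0.229, adjusted p = 0.208 in limma), a size that depends on the floor.

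Heme synthesis and breakdown had 9 tested genes of 10 on the arrays, none of which passed between homozygous mutant and wild type. Of these, 7 of 9 were negative, against 53.0% of all tested probe sets, with a median of -0.20. Alad, the enzyme after ALAS2 in the pathway, read 5301.5, 4176.0 and 4907.1 in wild type 1, 5 and 7 on type b, then 2997.6, 3370.7 and 4924.0 in heterozygous 3, 4 and 8. It read 3045.6, 1324.1 and 3706.9 in homozygous mutant 2, 6 and 9b, all below the wild-type values, as 8.56% of all tested probe sets were. The log2 difference was -0.95 (SE 0.348, adjusted p = 0.324 in limma). Hmox1, which breaks heme down and is induced by stress, was on the other side. It read 414.5 to 606.9 in wild type and 653.4 to 1145.4 in the homozygous mutant, a log2 difference of 0.87 (SE 0.291, adjusted p = 0.265).

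Genes of iron handling gave 0 calls of 6 tested, with a median of 0.13. The smallest p-values were those of Slc11a2, an iron importer, at -0.37, and Fth1, the ferritin heavy chain, at -0.17. Other membrane and skeleton genes gave 0 of 9 with a median of 0.10. Slc2a1, a glucose transporter of red cells and many other cells, read 5417.0 to 6540.5 in wild type and 7880.3 to 12235.7 in the homozygous mutant, without overlap (log2 difference 0.86, SE 0.206, adjusted p = 0.107 in limma). Higher values without overlap were found for 512 of all 6937 tested probe sets. Cd47, a membrane protein that keeps phagocytes off, differed by 0.41 and was above the floor on 3 of 9 arrays.

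Erythropoietin and Kit signalling gave 0 calls of 8 tested, with a median of -0.05. Kit, the stem cell factor receptor of blood progenitors, germ cells and melanoblasts, read 450.8 to 661.9 in wild type and 735.6 to 1124.4 in the homozygous mutant, without overlap (log2 difference 0.57, SE 0.206, adjusted p = 0.314 in limma). Such higher values without overlap were seen for 512 of the 6937 tested probe sets. Pim1, a kinase downstream of cytokine receptors, differed by -0.34. A list of red cell enzymes gave 0 of 8, with 7 of 8 negative, against 53.0% of all tested probe sets, and a median of -0.05. It holds Uros, which the heme list counts too, and Rhd, a membrane protein that the membrane list counts too. Car2, a carbonic anhydrase, read 4167.1, 1636.9 and 1410.3 in homozygous mutant 2, 6 and 8a against 3166.4 to 3419.5 in wild type, and Uros, of heme synthesis, differed by -0.74 (adjusted p = 0.473).

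A list of 17 hypoxia and glycolysis genes was read for contrast because oxygen regulates erythropoietin and iron genes. Of its 12 tested genes, 7 were called higher in the homozygous mutant than in wild type, and the median log2 difference was 1.33. Of all 6937 tested probe sets, 35 were called higher. Among the 7, Adm and Ndrg1 exceeded the floor on 3 of 9 arrays, all homozygous mutant. These genes thus entered the test only through the group in which they were high. That list was known from earlier results of these arrays to rise, so it is not independent evidence. Ddit4, a stress-induced inhibitor of growth signalling, read 2208.3 to 2617.8 in wild type and 20958.5 to 25898.7 in the homozygous mutant (log2 difference 3.35, adjusted p = 3.7e-05 in limma). Slc2a3, a glucose transporter, differed by 2.08 (adjusted p = 0.000151). The 8 tested probe sets of the red cell genes held no call in the same fit.

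Markers of other cells of the blood and vessels were read beside these results. Of 13 endothelial genes on the arrays 9 were tested and 0 passed between homozygous mutant and wild type. While 53.0% of all tested probe sets were negative, 8 of these 9 genes were positive, with a median of 0.12. Those of smallest p were Eng, a co-receptor for TGF-beta ligands, at 0.55 (adjusted p = 0.477 in limma), and Sox17, a factor of arterial endothelium and endoderm, at 0.45 (adjusted p = 0.443). Eng read 3816.7 to 6534.7 in wild type and 5763.9, 5688.3 and 10538.2 in homozygous mutant 2, 6 and 9b, so only 9b lay above the wild-type range. The summed intensity of the endothelial genes on type b was 10337 to 13412.5 in wild type, 10426 to 12076 in heterozygous and 12414 to 19917 in homozygous mutant embryos. The 19917 was that of 9b, and homozygous mutant 2 and 6 gave 12414 and 13461. On type a it was 2707 to 3349.7, 2487 to 2954 and 2938.5 to 3709. The myeloid genes gave 0 calls of 6 tested with a median of -0.10, and Ptprc, the leukocyte antigen CD45, differed by -0.16 and Cd68, a macrophage protein, by -0.12. Their summed intensity on type a was 5007.5 to 9420, 6792 to 9582 and 6128 to 6678. Of 2 megakaryocyte genes on the arrays F2rl2 was tested, with a difference of -0.41 and an adjusted p of 0.682. Liver and endoderm genes gave 0 of 9 tested, with Apoa2 at -0.63 and Rbp4 at 0.53, and heart muscle genes gave 0 of 9, with Myl3 at 0.85 and Nppb at -1.15. The part of these cells in the red cell values was not tested.

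The pattern of the members over arrays was then compared with all other genes. The member profile was the mean, over the brightest tested probe set of each gene, of the log2 level minus its mean over the 9 arrays. On type a, among 2657 probe sets, the most alike were Aprt (r = 0.94), Ptprc (r = 0.93), Fth1 (r = 0.93), Gdf9 (r = 0.92) and Cdkn2aipnl (r = 0.92). On type b, among 741, they were Nfyc (r = 0.91), Efnb1 (r = 0.91), Ube2l3 (r = 0.89), Csnk1g2 (r = 0.89) and Hp1bp3 (r = 0.88). Each r is over 9 arrays and the highest of many, and is given with no p. The profile was highest in wild type 5 on type a, at 0.58, and in wild type 1 on type b, at 0.31. It was lowest in 8a, at -0.39, and in 9b, at -0.49, followed by wild type 7 on type a at -0.37 and homozygous mutant 6 on type b at -0.38.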

How the data were processed

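Total RNA of the middle of 3 lengths of the embryos was measured on 18 arrays, 9 of each type. The authors deposited intensities for the probe sets that are linear and partly negative, so after a subtraction whose method was not given in the sources used here. They were scaled by the authors, as read from the deposited values, whose means after trimming 2% lie between 1502 and 1504 on all arrays but the type b array of heterozygous 8. That array, which lacks 499 values, has a mean of 1649. The array software and its settings were not given in the sources used here. The deposited scaling was kept.

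Control probe sets, 58 on each type, were left out, except the Tfrc probe sets that carry a control identifier. Gene symbols are those of the platform annotation, brought up to date by Entrez identifier. Of the 13 probe sets described, 10 carry the suffix that marks probes shared between transcripts, so related transcripts may add to their values. The noise SD was estimated from the negative values (median absolute size, scaled to an SD) as 187.5 for type a and 261.5 for type b. Before log2, lower values were raised to the floor, so differences near the floor are understated.

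The tests were two-sided, from limma 3.58.1 (lmFit, then eBayes with an intensity trend; R 4.3.3), 1 fit per type on 9 arrays, with Benjamini-Hochberg adjustment over the 6937 probe sets tested on both types. The script was tested on simulated data. Correlations and differences relative to globins were tested by exact permutation, two-sided, with scipy 1.17.1. The number of arrays, 3 per genotype, limits the precision.

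The members and the gene lists were chosen with earlier results of these data known. Named from each list were the 2 tested genes with the smallest unadjusted p between homozygous mutant and wild type, and by likeness the 5 genes per type with the highest r. The alternatives were 11 other settings and 9 fits that each left out 1 replicate. The relative globin scale, the choice of genes set on it and the alternatives of the pair correlations were added after the data were seen.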

Additional observations from a re-analysis of the deposited data

How the results depend on the processing

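Under all 20 alternatives, 0 of the tested probe sets of these genes were called in any comparison. The count over all probe sets moved most: between homozygous mutant and wild type from 48 to 19 with no filter on low signal and to 7 with only the 2 compared genotypes in the fit, and to between 14 (without wild type 5) and 55 (without 8a and 9b) with 1 replicate left out. Between homozygous mutant and heterozygous it went from 80 to 45, 42 and 14 to 88. Between heterozygous and wild type it was 0 to 1. Between heterozygous and wild type, signs turned for Nfe2 with a floor at 1 times the noise (0.43) and with a generalized log (0.28), for Klf1 and Alas2 with quantile normalization (-0.0606 and -0.0599) and for both with a common median (-0.0171 and -0.0090). With quantile normalization Tfrc on type b differed by 0.0790 between homozygous mutant and heterozygous. The correlations of Tal1 with Tfrc and Slc4a1 were -0.0029 and -0.0024 with a floor at 1 times the noise. The cause was not tested.

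With 1 replicate left out, signs turned within these ranges. Homozygous mutant against wild type: Tal1 -0.69 to 0.0888, Tfrc on type a -0.53 to 0.34 and on type b -0.25 to 0.44, its control probe set on type b -0.40 to 0.10. Heterozygous against wild type: Nfe2 -0.0744 to 0.0736, Alas2 -0.22 to 0.21, Klf1 -0.18 to 0.11, Slc4a1 -0.0574 to 0.57 and -0.0118 to 0.24, Tfrc on type b -0.14 to 0.32. Homozygous mutant against heterozygous: Tfrc on type b -0.33 to 0.28. No paired analysis was possible because within an array type the genotypes share at most 1 replicate number. With 3 arrays per genotype, differences inside the 95% intervals could not be shown, and probe sets under the floor could not be compared.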
